A study of Rattus norvegicus with 42 samples.

Results

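Lynx1 and 9 genes of acetylcholine signaling were examined in the hippocampus of neonatal rats. The members were Lynx1, the nicotinic receptor subunits Chrna2, Chrna4, Chrna5, Chrna7 and Chrnb2, the muscarinic receptors Chrm1, Chrm2 and Chrm3, and the enzyme acetylcholinesterase (Ache). They were found by gene symbol in the table of counts, where each member had 1 transcript, so that 10 of 15516 transcripts and 10 of 14304 gene symbols are described. Lynx1 and Chrna2 were proposed for description because of their values after phenobarbital in these same animals. For those genes the values after phenobarbital are therefore given as a description, with no test. The other members were taken along with them as genes of the same signaling system.

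All animals were wild-type male Sprague Dawley rats, injected once intraperitoneally on postnatal day 7, returned to the dam, and sampled 72 h later on postnatal day 10. The vehicle group (VEH) received saline and held 13 animals, the PB group received phenobarbital at 75 mg/kg and held 14, and the LEV group received levetiracetam at 200 mg/kg and held 14. Phenobarbital and levetiracetam are antiseizure drugs given to newborns. One animal per litter was taken for each treatment, and 1 further vehicle animal, which the study excluded, took no part in the comparisons. The sample codes had different forms for animals 1 to 6 and animals 7 to 14 of each group. These forms are called the first and second series here and were a term of the model. The labels give 2 purchase orders of animals but do not tie them to the codes. Each library held between 9499492 and 14488134 counts, with medians of 11712468 for VEH, 11103898 for PB and 11338328 for LEV. The summed level of 8 markers of hippocampal neurons lay between 7580 and 10081 normalized counts in all 41 animals.

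Nicotinic receptors are ion channels opened by acetylcholine and built from 5 subunits, so that the subunits a neuron makes set which channels it can assemble. Lynx1 is a small membrane-anchored protein of the Ly6 family that binds nicotinic receptors and dampens their response, and it is known as a brake on plasticity in the maturing cortex. Muscarinic receptors signal through G proteins, and acetylcholinesterase breaks acetylcholine down and ends its action. In the hippocampus acetylcholine arrives mostly from neurons of the septum and diagonal band, whose cell bodies lie outside the dissected tissue.

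Lynx1 (transcript NM_001130546; chromosome 7 of rn6, 115982879 to 115988083) was lower after PB than after VEH or LEV in most animals. Normalized counts, the counts scaled to a common effective library size, were lowest at 4314, had a median of 4880 and were highest at 5235 in VEH animals. LEV animals covered nearly the same range, from 4097 through a median of 4812 to 5284. PB animals ran from 1989 through a median of 3808 to 4799. All 14 PB animals were below the mean of the VEH animals of their own series, and 11 of 14 were below the lowest VEH animal. The groups nevertheless overlapped, since PB animals 6, 12 and 13, at 4317, 4799 and 4719, lay within the VEH range.

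Mean Lynx1 was 3825 ± 731 (SD, n = 14) after PB, compared with 4837 ± 309 (n = 13) after VEH and 4810 ± 379 (n = 14) after LEV. The log2 fold change of PB against VEH was -0.34 (SE 0.07, 95% interval -0.48 to -0.20), a change of -21.1%. Against LEV it was -0.33 (SE 0.07), and again all 14 PB animals were below the LEV mean of their series. Of all 13062 transcripts tested, 1.26% had every PB animal below the VEH mean of its series and 1.28% had every PB animal below the LEV mean. LEV and VEH values overlapped over nearly their whole range, with a log2 fold change of -0.01 (SE 0.07, 95% interval -0.15 to 0.13, adjusted p = 0.991, edgeR quasi-likelihood test, p-values adjusted by Benjamini-Hochberg). The smallest fold change counted as a call here, 0.32 in either direction on the log2 scale (a level 25% higher or its inverse), lay outside that interval.

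PB animals also differed more from each other in Lynx1 than animals of the other groups did. The coefficient of variation was 19.1% among PB, 6.39% among VEH and 7.89% among LEV animals, while counting error at these counts was 1.43% to 1.62%. The difference in spread was not tested. PB animals 2 (1989) and 7 (2909) were the lowest of all animals, and they came from different series. Without PB animal 2 the log2 fold change against VEH was -0.29, without PB animal 7 it was -0.31, and without both it was -0.26 (SE 0.05). Each of these is below the fold limit of 0.32. The summed level of the hippocampal neuron markers was 7962 to 8622 after PB, 8056 to 10081 after VEH and 7580 to 9223 after LEV. For PB against VEH 7 of the 8 markers had a log2 fold change below 0, with a median of -0.05, and 0 of 8 passed the adjusted p limit. Over all transcripts 48.1% were below 0 and 5.39% passed, so that nothing is read from 0 of 8. Both series gave the same Lynx1 value, -0.34 (SE 0.13) in animals 1 to 6 and -0.34 (SE 0.08) in animals 7 to 14. The first value includes PB animal 2 and the second PB animal 7. The medians of PB and VEH were 4029 and 4636 in the first series and 3728 and 4883 in the second.

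**Figure D1:**
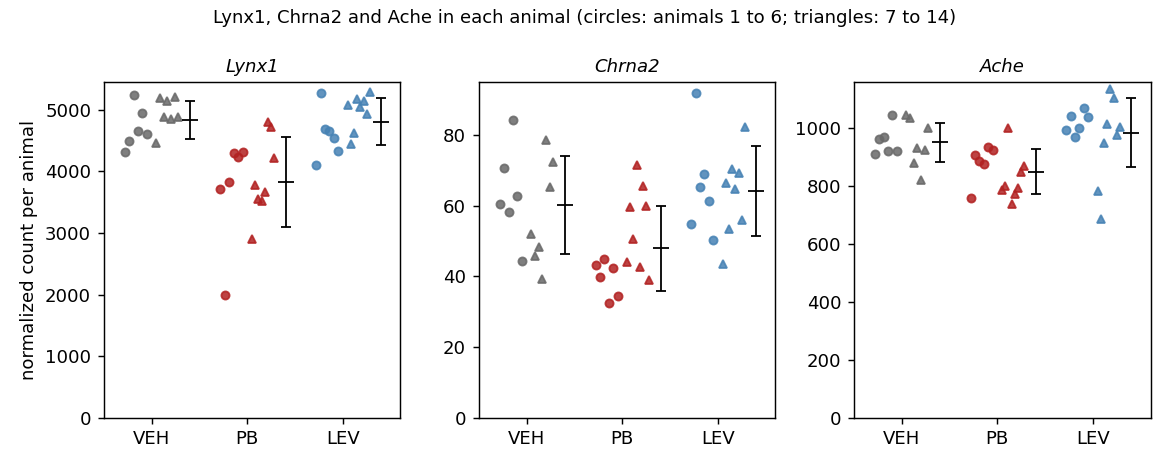
Normalized counts (vertical axes, from 0) of Lynx1, Chrna2 and Ache, 1 point per animal, for the VEH (n = 13), PB (n = 14) and LEV (n = 14) groups. Circles are animals 1 to 6, triangles animals 7 to 14, and bars give the mean ± SD. The PB points of Lynx1 reach down to 1989 while no VEH or LEV point is below 4097, and the 6 PB circles of Chrna2 lie between 32.3 and 45.0.

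Chrna2 (chromosome 15, 42808897 to 42825180) encodes the alpha2 nicotinic subunit, which in the hippocampus is known for a class of somatostatin interneurons at the border of stratum oriens and the alveus. It was low in these libraries, with 36 to 97 counts per animal. Normalized counts were 39.3 at the lowest, 60.4 at the median and 84.2 at the highest in VEH animals. PB animals ran from 32.3 through a median of 43.7 to 71.6, and LEV animals from 43.5 through 65.0 to 91.9. The 3 groups overlapped widely, although 7 of 14 PB animals were below the lowest LEV animal.

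Mean Chrna2 was 47.9 ± 11.9 (SD, n = 14) after PB, compared with 60.2 ± 13.9 (n = 13) after VEH and 64.2 ± 12.7 (n = 14) after LEV. The log2 fold change was -0.34 (SE 0.13) for PB against VEH, and 10 of 14 PB animals lay under their series' VEH mean. It was -0.43 (SE 0.12) for PB against LEV, with 12 of 14 below the LEV mean. Between LEV and VEH it was 0.09 (SE 0.12, 95% interval -0.15 to 0.33, adjusted p = 0.967, edgeR). Counting error alone gives a coefficient of variation of 12.5% to 14.6% at this depth, against an observed 19.7% to 24.9%.

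The Chrna2 values after PB are given by series. In animals 1 to 6 the 6 PB values lay between 32.3 and 45.0, the 6 VEH values between 44.3 and 84.2, and the log2 fold change was -0.68 (SE 0.16). In animals 7 to 14 the PB values lay between 39.0 and 71.6, the VEH values between 39.3 and 78.5, and the log2 fold change was -0.08 (SE 0.17). The difference between the series was 0.60 (SE 0.24) on the log2 scale. It is given as a description, because Chrna2 was proposed for its PB values, and nothing is read from it. Against LEV the log2 fold changes were -0.74 (SE 0.16) in animals 1 to 6 and -0.22 (SE 0.16) in animals 7 to 14.

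Some markers of several cell types differed after PB in the same animals, and others did not. All 3 of the 3 skeletal muscle genes tested, of 6 in the list, fell after PB: the summed level of the list was 117 to 161 after PB, 293 to 447 after VEH and 267 to 542 after LEV in the first series. In the second series it was 68.8 to 136, 116 to 164 and 106 to 165. The muscle enzyme gene Ckm was at 0 in 26 animals. The muscle marker Atp2a1 correlated with Chrna2 at r = 0.41 and with Chrm3 at r = 0.33 over the 41 animals after removal of the treatment and series means. That removal left in place any treatment difference that was unlike in the series, as the values of the muscle level and of Chrna2 were. Nothing about single animals is therefore read from these correlations. A fit with the muscle level as a covariate was added after seeing the data. Its Chrna2 value was -0.12 for PB against VEH and -0.23 for PB against LEV, and its Lynx1 value was -0.33 against VEH. Every PB animal of the first series had a lower muscle level than any VEH or LEV animal of that series. The covariate can therefore take up part of the treatment difference itself, and nothing is read from these values. The neuropeptide gene Sst, the defining marker of somatostatin interneurons, also fell after PB, by 0.38 on the log2 scale, and was the 1 of 8 tested transcripts of its list that passed the adjusted p limit. Its correlation with Chrna2 was -0.03. Of 7 other interneuron markers 3 passed the limit for PB against VEH: Pvalb (parvalbumin) fell by 0.83, Slc32a1, the vesicular GABA transporter gene, fell by 0.27, and Calb2 (calretinin) rose by 0.32. Of 4 tested thalamus and habenula markers, Tcf7l2 and Prkcd each rose by 0.35, while Lef1 was at -0.13 and Slc17a6 at 0.00 and did not pass. The summed level of that list was 1260 to 1624 after PB and 1194 to 1564 after VEH. The astrocyte gene Gfap rose by 0.32 and was the 1 of 19 transcripts of glial and endothelial markers that passed. Of the choroid plexus and red blood cell markers, 0 of 8 and 0 of 4 passed. Over all transcripts 5.39% passed the adjusted p limit for PB against VEH, and lists this short are too small to set against that share. The part of these cells in the Lynx1 and Chrna2 values was not tested. In RNA from whole tissue, fewer cells of a type and less RNA per cell cannot be told apart.

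The remaining nicotinic subunits did not pass the test in any comparison. Chrna4 (chromosome 3, 176533182 to 176547966) and Chrnb2 (chromosome 2, 189088570 to 189096779) encode the subunits of the commonest high-affinity nicotinic receptor of the brain. Chrna4 had normalized counts of 238 to 395 (median 309) in VEH, 263 to 398 (median 343) in PB and 259 to 449 (median 323) in LEV animals. Chrnb2 had 518 to 714 (median 595), 523 to 684 (median 588) and 471 to 658 (median 569). The 3 ranges of each gene overlapped almost fully. The log2 fold change of PB against VEH was 0.12 (SE 0.08, 95% interval -0.03 to 0.27, adjusted p = 0.384, edgeR) for Chrna4. It was -0.03 (SE 0.05, interval -0.13 to 0.07, adjusted p = 0.825, edgeR) for Chrnb2.

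Chrna5 (chromosome 8, 59561817 to 59590173), an accessory subunit that joins receptors of this type, had 138 to 275 (median 224) normalized counts in VEH, 213 to 281 (median 240) in PB and 181 to 274 (median 235) in LEV animals. The VEH group was the widest, since 4 VEH animals were below the lowest PB animal. The log2 fold change of PB against VEH was 0.16 (SE 0.08, adjusted p = 0.297, edgeR), with 9 of 14 PB animals above the VEH mean of their series.

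Chrna7 (chromosome 1, 123901064 to 124039194), whose product forms fast calcium-permeable channels, had 118 to 320 (median 241) normalized counts in VEH, 174 to 263 (median 198) in PB and 166 to 267 (median 220) in LEV animals. PB animals were gathered toward the lower part of the VEH range, 12 of 14 lying under their series' VEH mean. The log2 fold change of -0.19 (SE 0.09, 95% interval -0.36 to -0.01) had an unadjusted p of 0.0409 and an adjusted p of 0.223 in edgeR. VEH animal 9, at 118, was the lowest of all, and without it the value was -0.25 with an adjusted p of 0.0481 in edgeR. That was the only 1 of the 41 fits leaving out 1 animal that passed the limit. The adjusted p reached 0.348 in edgeR among them, and the value was -0.15 without VEH animal 4.

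The 3 muscarinic receptors differed little between groups. Chrm1 (chromosome 1, 224882628 to 224884011) and Chrm3 (chromosome 17, 63990599 to 64463223) act through Gq and phospholipase C, and Chrm2 (chromosome 4, 64089028 to 64091091) acts through Gi and is known as a presynaptic autoreceptor. Chrm1 had 657 to 843 (median 742) normalized counts in VEH, 577 to 764 (median 715) in PB and 475 to 870 (median 732) in LEV animals. For PB against VEH its log2 fold change was -0.10 (SE 0.06, 95% interval -0.21 to 0.02, adjusted p = 0.368, edgeR). Chrm3 had 1066 to 1442 (median 1150) in VEH, 844 to 1328 (median 1166) in PB and 1094 to 1374 (median 1187) in LEV animals. Its log2 fold change was -0.05 (SE 0.05, 95% interval -0.14 to 0.04, adjusted p = 0.560, edgeR), and its lowest animal was PB animal 2, the animal that was also lowest in Lynx1. Chrm2 was low, at 37.1 to 70.4 (median 53.9) in VEH, 33.9 to 72.3 (median 49.3) in PB and 36.6 to 68.6 (median 54.1) in LEV animals. Its interval of -0.32 to 0.10 around a log2 fold change of -0.11 (SE 0.11) was the widest of the muscarinic receptors (adjusted p = 0.636, edgeR).

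For LEV against VEH the 7 receptor genes other than Chrna2 had log2 fold changes between -0.10 and 0.10, with adjusted p from 0.914 to 0.993 in edgeR. For PB against LEV they lay between -0.09 and 0.05, with adjusted p from 0.604 to 0.861.

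**Figure D2:**
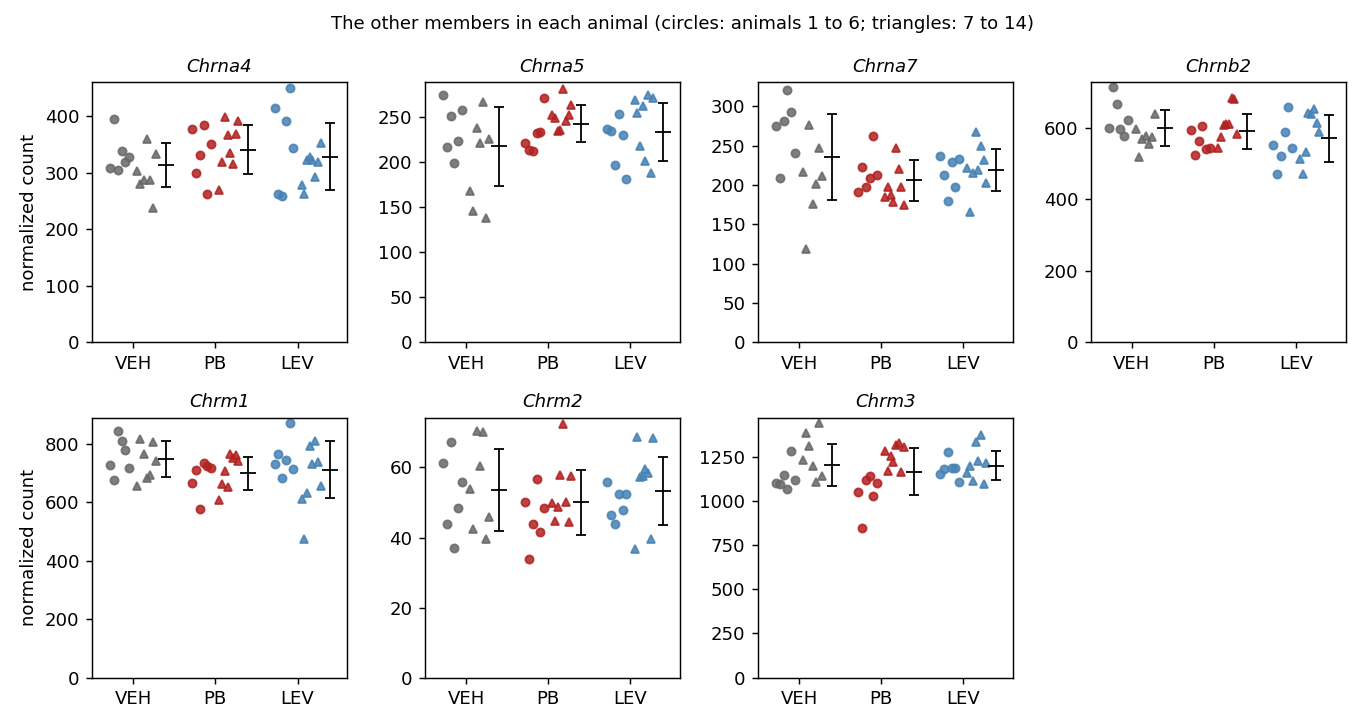
Normalized counts (vertical axes, from 0) of the 7 other members, 1 point per animal, in VEH (n = 13), PB (n = 14) and LEV (n = 14). Circles are animals 1 to 6, triangles animals 7 to 14, and bars give the mean ± SD. The 3 groups overlap in every panel, and the lowest Chrna7 value, 118, is a VEH animal.

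Ache (chromosome 12, 22472358 to 22477053) had an adjusted p under 0.05 in 1 comparison, and it was the only one of the 8 members whose PB values were tested to do so. Normalized counts were 818 at the lowest, 928 at the median and 1045 at the highest in VEH animals, 735, 857 and 997 in PB animals, and 683, 1001 and 1133 in LEV animals. PB animals were low in the order of all animals, 6 of 14 lying below the lowest VEH animal and 8 of 14 LEV animals lying above the highest PB animal. The lowest animal of all was nevertheless LEV animal 8, at 683.

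Mean Ache was 848 ± 77.2 (SD, n = 14) after PB, compared with 949 ± 67.5 (n = 13) after VEH and 982 ± 119 (n = 14) after LEV. Ache fell after PB relative to LEV, by 0.21 on the log2 scale (SE 0.05, adjusted p = 0.0152, edgeR), which is 13.6% and below the fold limit, and 13 of 14 PB animals were below the LEV mean of their series. Of all transcripts tested, 4.45% passed the adjusted p limit in that comparison. Relative to VEH the log2 fold change was -0.16 (SE 0.05, adjusted p = 0.0622, edgeR), and 13 of 14 PB animals were under the VEH mean. Between LEV and VEH it was 0.05 (SE 0.05, adjusted p = 0.949, edgeR). Within the series, PB against LEV gave -0.21 (SE 0.05, adjusted p = 0.0436, edgeR) in animals 1 to 6 and -0.21 (SE 0.08, adjusted p = 0.217, edgeR) in animals 7 to 14. The PB-LEV difference passed the limit in each of the 41 fits that left out 1 animal, with adjusted p from 0.00111 to 0.0321 in edgeR. With the muscle level as a covariate its adjusted p was 0.147 in edgeR, at a log2 fold change of -0.20 (SE 0.07). That covariate can take up part of the treatment difference itself.

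Across the members, PB against VEH gave 1 call past both limits, the fold limit and an adjusted p under 0.05, which was Lynx1. The background over all transcripts was 0.605%, and nothing is read from this count, because Lynx1 was proposed from that contrast. The median log2 fold change was -0.10 over the 10 members, of which 8 were below 0, and 0.00 over all transcripts, of which 48.1% were below 0. Lynx1 and Chrna2, proposed for their low values in this contrast, are among the 8, so that nothing is read from the median or the tally either. PB against LEV gave 2 calls, Lynx1 and Chrna2, against a background of 0.582%, a count from which nothing is read either, with a median of -0.07 over the members. LEV against VEH gave 0 calls in edgeR, against a background of 0.00%, and 0 calls in DESeq2. At an unadjusted p under 0.05 it counted 0 members, against 5.84% of all transcripts, and the members' median was -0.01. The PB comparisons share their PB animals and those with VEH share the VEH animals, so that they are not separate lines of evidence.

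**Figure D3:**
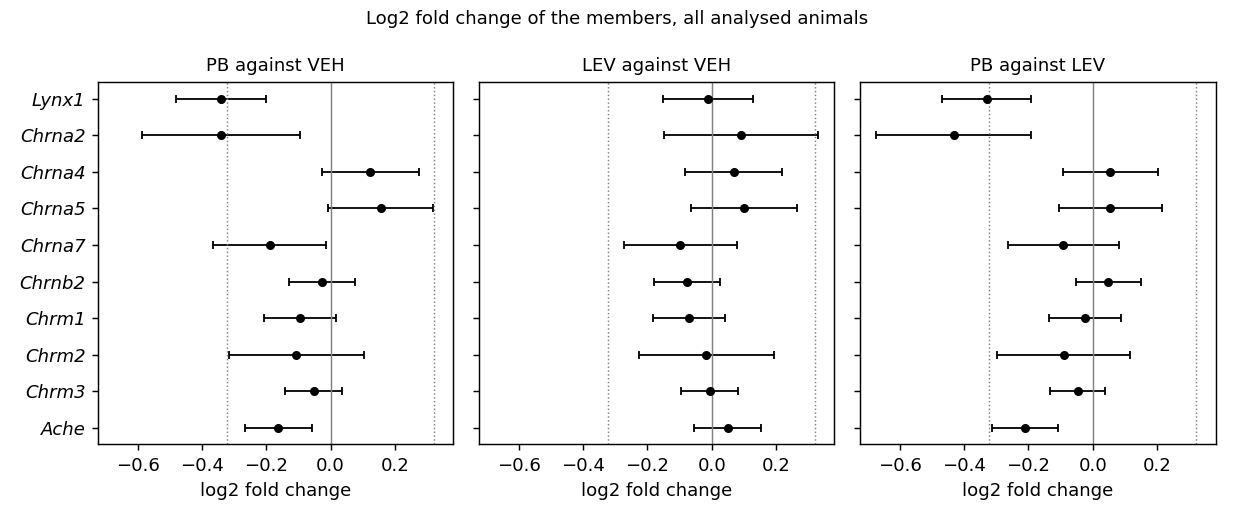
Log2 fold change (horizontal axes) of the 10 members for PB against VEH, LEV against VEH and PB against LEV, with 95% intervals from the model of all 41 animals. Dotted lines mark the fold limit of 0.32. Lynx1 and Chrna2 lie at or beyond the limit in both PB comparisons, where they are shown as a description. For LEV against VEH the points of all members lie within it, while the interval of Chrna2 reaches 0.33.

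The values of several nicotinic subunits by series were as follows. Chrna5 was -0.04 (SE 0.09) for PB against VEH in animals 1 to 6 and 0.33 (SE 0.12) in animals 7 to 14, and -0.09 (SE 0.09) and 0.27 (SE 0.12) for LEV against VEH. Chrna7 was -0.32 (SE 0.10) and -0.06 (SE 0.13) for PB, and -0.33 (SE 0.10) and 0.10 (SE 0.13) for LEV. Chrnb2 was -0.16 (SE 0.07) and 0.09 (SE 0.07) for PB, and -0.17 (SE 0.07) and 0.01 (SE 0.07) for LEV. Both drugs are compared with the same VEH animals, whose means differed between the series: Chrna7 averaged 270 ± 39.5 (SD, n = 6) in the first and 207 ± 50.6 (n = 7) in the second, and Chrna5 237 ± 28.5 and 200 ± 49.6. The treatment-by-series term passed the adjusted p limit for 0 of 10 members with PB and 0 of 10 with LEV. Its lowest adjusted p for a member was 0.323 with PB and 0.252 with LEV in edgeR, where 0.0689% and 0.842% of all transcripts passed. At an unadjusted p under 0.05 it counted 3 members with PB and 2 with LEV, against 11.1% and 12.8% of all transcripts. Lynx1 and Chrna2 enter the PB counts and Chrna2 is among the 3, so that nothing is read from the PB counts.

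**Figure D4:**
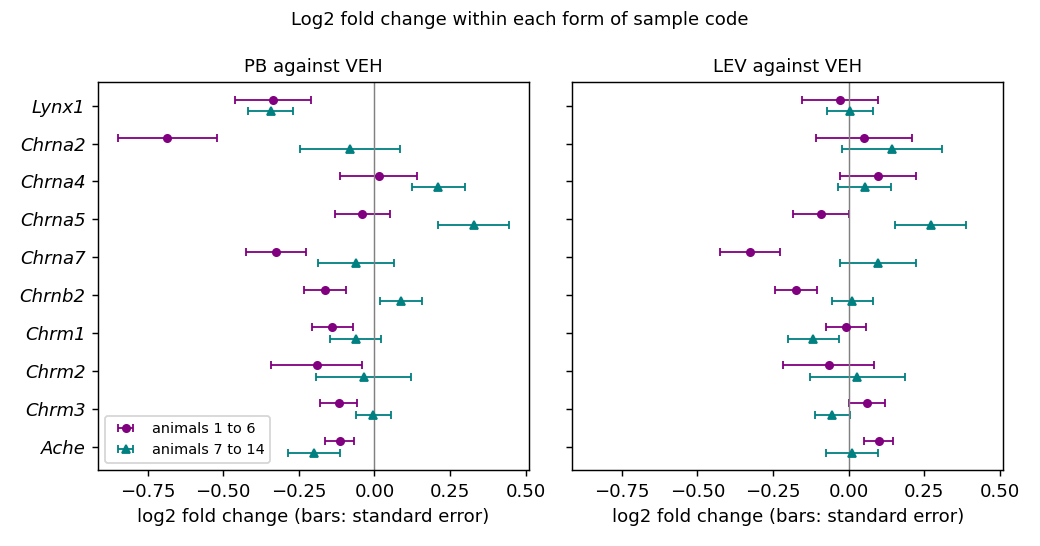
Log2 fold change (horizontal axes, bars ± SE) of the 10 members within animals 1 to 6 (circles) and within animals 7 to 14 (triangles), for PB against VEH and LEV against VEH. Lynx1 is at -0.34 in both series after PB, while Chrna2 is at -0.68 and -0.08.

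Other genes of the cholinergic system were taken from 5 lists. Of 41 further genes, 38 were in the table and 31 transcripts of 30 genes had enough counts to be tested. For PB against VEH 0 of 31 passed the adjusted p limit and the lowest adjusted p was 0.0537, that of Tmem35a, the nicotinic receptor chaperone NACHO, at a log2 fold change of -0.11 (SE 0.03, edgeR). For LEV against VEH 0 of 31 passed, and for PB against LEV 1 of 31. Over all transcripts 5.39%, 0.00766% and 4.45% passed in these comparisons, so that at this number of genes the counts are near the background and show nothing particular to the lists. The median log2 fold change was 0.02, 0.00 and -0.01.

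Among 11 other nicotinic subunits, 4 were tested and the largest difference was that of Chrne, the epsilon subunit of the adult neuromuscular receptor, at 0.44 (SE 0.25, adjusted p = 0.323, edgeR) for PB against VEH, with 9.05 normalized counts in VEH and 12.0 in PB animals on average. Chrna3 and Chrnb4, which pair in ganglionic receptors, were at 0.27 (SE 0.18) and 0.39 (SE 0.25). Chrna1, Chrna6, Chrna9, Chrna10, Chrnb3 and Chrng had at most 10 counts in any animal and were not tested. Among the other muscarinic receptors, Chrm4 was at 0.01 (SE 0.06) and Chrm5 at 0.02 (SE 0.10). With Chrm1, Chrm2 and Chrm3 the muscarinic family gave 0 of 5 past the limit in each of the 3 comparisons, too few genes to set against the shares over all transcripts. The 13 genes of muscarinic signaling, the G proteins, phospholipases and potassium channels that these receptors act on, gave 0 past the limit in each comparison, and the largest PB-VEH value was that of the G protein gene Gnaq, at 0.09 (SE 0.07).

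Of the genes that make, carry and break down acetylcholine, 5 of 6 were tested and 0 passed. Chat, the enzyme that makes acetylcholine, had 0 to 11 counts per animal and was not tested. Prima1, which anchors acetylcholinesterase in the membrane of neurons, had 43.1 ± 10.4 normalized counts in VEH (SD, n = 13), 53.9 ± 12.3 in PB and 53.9 in LEV animals on average (n = 14 each). Its log2 fold change was 0.32 after PB (SE 0.13, adjusted p = 0.144) and 0.32 after LEV (SE 0.13, adjusted p = 0.791), both from edgeR. The choline transporter gene Slc5a7 was at 0.17 (SE 0.11) and the vesicular transporter gene Slc18a3 at 0.09 (SE 0.19) for PB against VEH.

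Among the relatives of Lynx1 and the nicotinic chaperones, 7 transcripts of 6 genes were tested. Ly6e, another Ly6 family gene, fell after PB relative to LEV by 0.13 on the log2 scale (SE 0.04, adjusted p = 0.0459, edgeR), with means of 1479 after PB, 1596 after VEH and 1624 after LEV. Relative to VEH it was at -0.11 (SE 0.04, adjusted p = 0.116, edgeR). Ly6h, which also acts on nicotinic receptors, was at -0.08 (SE 0.04, adjusted p = 0.266, edgeR), and Lypd1, a Ly6 protein of cortical neurons, at 0.02 (SE 0.06).

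The transcripts whose levels followed Lynx1 most closely from animal to animal were sought after removal of the treatment and series means, among 11016 transcripts with a mean of at least 50 counts. Over the 41 animals the highest Pearson correlations were 0.91 for Dusp3, a dual-specificity phosphatase, 0.91 for Thy1, a neuronal surface glycoprotein, 0.87 for Tuba4a, an alpha-tubulin, 0.87 for Cntnap1, which is part of the axon-glia junction beside the node of Ranvier, and 0.87 for Snph, an anchor of axonal mitochondria. The points of a pair share a library, and PB animals 2 and 7 lay farthest out. Without those animals the values were 0.80, 0.74, 0.68, 0.81 and 0.74, and in the 27 VEH and LEV animals alone they were 0.78, 0.64, 0.55, 0.78 and 0.63.

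These 5 transcripts were chosen by their deviations within groups, not by the group means. All 5 fell after PB relative to VEH at the adjusted p limit, as 3.46% of all transcripts did. The log2 fold change was -0.17 (SE 0.04, adjusted p = 0.0159) for Dusp3, -0.25 (SE 0.07, adjusted p = 0.0294) for Thy1, -0.29 (SE 0.08, adjusted p = 0.0237) for Tuba4a, -0.28 (SE 0.07, adjusted p = 0.0125) for Cntnap1 and -0.18 (SE 0.05, adjusted p = 0.0188) for Snph, all from edgeR. The same PB animals enter their means and their correlations with Lynx1, so that the values are not independent of those of Lynx1. Relative to LEV, 3 of the 5 fell, namely Cntnap1 by 0.32, Tuba4a by 0.31 and Thy1 by 0.27, while Dusp3 was at -0.13 (adjusted p = 0.0541) and Snph at -0.09 (adjusted p = 0.293). For LEV against VEH the values ran from -0.09 to 0.04.

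The transcripts that ran most opposite to Lynx1, a choice made after their values were seen, were Sox4 (r = -0.81), Cd24 (-0.78), Dcx (-0.76), Tardbp (-0.76) and Vash2 (-0.74). Sox4 and Dcx are genes of newly formed neurons. Without PB animals 2 and 7 the correlations were -0.63, -0.59, -0.55, -0.43 and -0.49, and in the 27 VEH and LEV animals they were -0.48, -0.47, -0.48, -0.31 and -0.52. Sox4 rose after PB relative to VEH, by 0.14 on the log2 scale (SE 0.04, adjusted p = 0.0432, edgeR), and Dcx was at 0.20 (SE 0.07, adjusted p = 0.0700). Cd24 was at 0.19 (adjusted p = 0.0596), Vash2 at 0.18 (adjusted p = 0.117) and Tardbp at 0.01 (adjusted p = 0.913), all from edgeR. Of all transcripts 5.39% passed the adjusted p limit in either direction. The same PB animals enter these values and the correlations with Lynx1, so that the values are not independent of those of Lynx1. Relative to LEV, Dcx rose by 0.29 (adjusted p = 0.00761, edgeR), Cd24 by 0.26, Vash2 by 0.24 and Sox4 by 0.13. Tardbp was at 0.03 (adjusted p = 0.840, edgeR) in that comparison, where 4.45% of all transcripts passed.

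**Figure D5:**
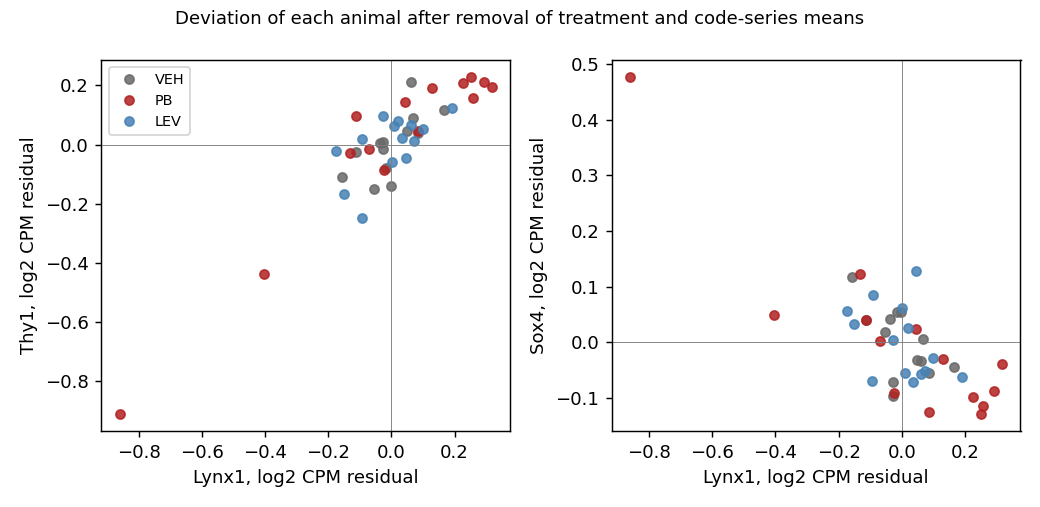
Deviation of each of 41 animals from its treatment and series mean in log2 CPM (counts scaled to library size), for Lynx1 (horizontal axes) against Thy1 (left) and Sox4 (right), 1 point per animal. Thy1 rises with Lynx1 (r = 0.91) and Sox4 runs opposite (r = -0.81). The 2 points farthest left are PB animals 2 and 7.

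Chrna2 had no such close companions. The highest correlations were 0.55 for Stat5b, 0.52 for Mblac1, 0.50 for Cnot11, 0.49 for Bcs1l and 0.49 for Sf1, and are given as a description. Counting error in so few counts lowers correlations, so that closer companions could have been missed. Their log2 fold changes for PB against VEH ran from -0.08 to 0.18 with adjusted p from 0.120 to 0.948 in edgeR.

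Among the members themselves, the highest correlations over the 41 animals were 0.59 between Chrna4 and Chrnb2, whose products assemble together, 0.58 between Chrm1 and Ache and 0.55 between Chrna5 and Chrm2. Lynx1 correlated with Chrm3 at 0.45, with Chrnb2 at 0.27 and with Chrna2 at 0.11. With the interneuron genes Gad1 and Sst, Lynx1 correlated at 0.47 and 0.44. Chrna4 also correlated with Sst at 0.44, and Chrna7 and Chrnb2 with Gad1 at 0.36 and 0.35. All these values include PB animals 2 and 7.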

How the data were processed

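RNA-seq libraries came from the hippocampi of 42 rat pups, each library from 1 animal. Reads were aligned by the authors with STAR 2.7.3a to rn6, and they deposited estimated counts per RefSeq transcript, made with Partek and not normalized. A deposited table of the authors' own DESeq2 comparisons was not used. The estimated counts were rounded (13.4% were not whole, and 0 values of any member), and 13062 of 15516 transcripts passed filterByExpr in edgeR 4.0.16 (R 4.3.3). Counts were normalized by TMM (trimmed mean of M values). One quasi-likelihood model held the 3 treatments and the series, p-values were adjusted by Benjamini-Hochberg over all tested transcripts, and transcripts were called at a fold change of at least 1.25 with an adjusted p under 0.05. The study removed batch effects, batch-by-treatment effects included, before DESeq2, and this was an alternative (DESeq2 1.42.0, limma 3.58.1). Animals are separate, but counting error and p-values cover only these animals. The model was tested on simulated data. All members were named, with list genes that passed the adjusted p limit in a comparison or else had the largest change, and the 5 transcripts most correlated with Lynx1 and with Chrna2. Tmem35a and a few other list genes were named after their values were seen. The members and lists were chosen with earlier results of these data known. Transcript lengths were not used here, so levels are not compared between genes, and no promoter or protein sequence is shown. The library kit is not stated to mark strand, and no listed transcript overlapped a member.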

Additional observations from a re-analysis of the deposited data

Results flagged for a closer look

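The vehicle animal that the study excluded for its coverage was not part of any comparison. Scaled together with the others, it lay above the highest of the 13 analyzed VEH animals in 6 of the 10 members. The share of all transcripts for which it did so was not counted, so that nothing particular to the members is read from this. Its normalized counts were 6018 for Lynx1 (VEH range 4310 to 5229), 97.3 for Chrna2 (39.3 to 84.1) and 700.1 for Chrna4 (238 to 395). They were 876 for Chrnb2 (517 to 714), 1175 for Chrm1 (656 to 842) and 1250 for Ache (818 to 1044). Chrna5, Chrna7, Chrm2 and Chrm3 lay within the VEH range. The summed level of its hippocampal neuron markers, 8035, was just under the VEH range of 8047 to 10070. What these values come from was not tested.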

How the results depend on the processing

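The member calls depended on few animals and on the model. Lynx1 and Chrna2 were proposed for their PB values, so that nothing is read from the number of member calls. Over all transcripts, the model reported called 0.605% for PB against VEH and 0.582% for PB against LEV. With 1 call for PB against VEH in the model reported, the count was 2 with a treatment-by-series term and 2 after subtraction of batch effects and DESeq2, 0 in animals 1 to 6 alone, and 0 without PB animals 2 and 7 or with the muscle level as a covariate, both added after seeing the data. With 2 calls for PB against LEV, it was 1 with DESeq2, 1 in animals 1 to 6, 1 in animals 7 to 14, 1 with the excluded animal, and 0 in both added fits. Leaving out 1 animal gave 0 to 1 calls for PB against VEH (0 without PB animal 2 or 7), 0 to 2 for PB against LEV (0 without PB animal 2 or 7 or LEV animal 2 or 14, and 1 without PB animal 4, 6, 9, 10 or 11), and 0 for LEV against VEH. With the animal number as a replicate block the counts stayed 1, 2 and 0. The labels do not say whether animals of the same number were littermates. Over 40 same-numbered pairs the correlation of deviations ran from -0.43 to 0.45 (median -0.02), 13 were over 0.1, and 5 animals correlated best with their own number. These correlations do not show pairing, but they cannot exclude it. The Ache difference between PB and LEV passed the adjusted p limit in 12 of 15 alternatives, all but animals 7 to 14 (0.217), the excluded animal included (0.0526) and the muscle covariate (0.147), and the PB-VEH difference passed in 3, with adjusted p from 0.0366 to 0.339 over all 15. No call reversed, and 15 of 30 member values, none of them called, changed sign in some alternative. Over all transcripts the calls for PB against VEH numbered 79, and 17 in animals 1 to 6, 168 in animals 7 to 14 and 50 without PB animals 2 and 7. For PB against LEV they numbered 76, and 36 with DESeq2, 24 in animals 1 to 6, 34 with the excluded animal and 46 with the muscle covariate. Leaving out 1 animal gave 52 to 115 and 39 to 101, the lowest of each without PB animal 7, and 50 for PB against LEV without LEV animal 2. For LEV against VEH they numbered 0, and up to 170 in animals 1 to 6. The causes were not tested. Counting error limits Chrna2 and Chrm2 most.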
